A study of Homo sapiens with 12 samples.

Results

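The 10 genes described here encode cytokines, receptors and regulators of the LIF and IL6 family: the ligands LIF, IL6 and IL11, the receptors LIFR, OSMR, IL6R and IL6ST, the transcription factor STAT3, and the inhibitors SOCS1 and SOCS3. They were picked by gene symbol, with no measured value in the rule, though with earlier results of these data known. They make up 10 of the 26485 genes of the annotation. All 10 passed the filter on low counts, as did 14865 genes in all.

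RNA was sequenced from OVCAR8 cells, an established line of human ovarian cancer origin that the study used as a Ras-mutant model, so all groups come from 1 line. Cells received vehicle (control), 150 nM EC359, a small-molecule inhibitor of LIFR, 100 nM trametinib, a MEK inhibitor, or both agents (combination), each for 7 h, with 3 libraries per group. The labels do not say whether the 3 libraries came from separate cultures, so p-values here measure the spread between these libraries.

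Cytokines of this family act through receptor complexes that share gp130, the product of IL6ST. LIF joins LIFR to gp130, IL6 first binds IL6R, IL11 binds its own receptor, and oncostatin M uses OSMR or LIFR. The complexes activate JAK kinases, which phosphorylate STAT3, and STAT3 in turn induces SOCS proteins that restrain the signal. In ovarian cancer the family is best known for IL6, which tumor cells secrete and which accumulates in ascites.

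Between 24790392 and 32467283 reads per library were assigned to genes, and levels are given as CPM (counts relative to the TMM-scaled size of the library). Across genes, log2(CPM + 0.5) correlated with r of 0.9956 to 0.9964 between libraries of 1 group and 0.9677 to 0.992 between groups, and no library stood apart. Of 12 markers listed for ovarian epithelial cancer cells, 9 reached 1 CPM in every group, while KRT19, MUC16 and CDH1 did not. The 9 include VIM and CDH2, which are not particular to epithelial cells. Of 15 markers of other cell types, only COL1A1 and CD68 reached 1 CPM, and the defining markers PTPRC, CD3E, DCN and HBB had 0 counts in all 12 libraries. The summed level of those 15 markers ranged from 465 to 492 CPM in control, 278 to 293 CPM with EC359, 563 to 577 CPM with trametinib and 364 to 388 CPM in the combination, and at most 1.44 CPM of it came from markers other than COL1A1 and CD68. TMM factors lay between 0.947 and 0.952 in the libraries with EC359, alone or combined, and between 1.04 and 1.06 in the others.

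The promoters of IL6 and IL11 are shown because these genes had the largest fold changes with EC359 among the 10. The letters run 5′ to 3′ on the strand of each gene and end at the base before its start in the annotation of the files. They were taken from RefSeq's GRCh38.p14 at chr7:22726950-22727146 (plus strand) for IL6 and chr19:55370464-55370713 (minus strand) for IL11. Capitals mark matches to the NF-kB motif in IL6 and to the AP-1 motif in IL11.
IL6: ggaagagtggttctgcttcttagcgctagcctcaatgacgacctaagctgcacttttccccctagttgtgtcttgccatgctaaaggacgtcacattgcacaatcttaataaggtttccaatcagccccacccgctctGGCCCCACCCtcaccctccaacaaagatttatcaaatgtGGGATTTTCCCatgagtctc
IL11: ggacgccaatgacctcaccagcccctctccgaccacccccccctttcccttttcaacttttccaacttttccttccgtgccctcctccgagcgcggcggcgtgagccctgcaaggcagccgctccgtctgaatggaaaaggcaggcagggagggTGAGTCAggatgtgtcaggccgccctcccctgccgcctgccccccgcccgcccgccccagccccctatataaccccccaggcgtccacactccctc

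4 motifs were searched on both strands in windows from 250 bases before to 50 bases after each RefSeq start: a STAT site (TTCNNNGAA), an AP-1 site (TGANTCA), a CRE (TGACGTCA) and an NF-kB site (3 G, any 5 bases, 2 C). Windows were found for 9 of the 10 genes, 12 windows in all, and LIF had no entry. The AP-1 letters occurred in IL11, 96 bases before the start, and in IL6R and OSMR, against 7.71% of the 35116 windows of all genes. The STAT letters occurred only in LIFR, in 2 of its windows, against 7.66% of all windows. The NF-kB letters, which can overlap each other, occurred in windows of 8 genes, with 3 matches in IL6, and in 58.7% of all windows. The CRE letters, found in 1.85% of all windows, were in none of the 12. A match describes the letters and is not a measured site, and the absence of one concerns these windows only.

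**Figure D1:**
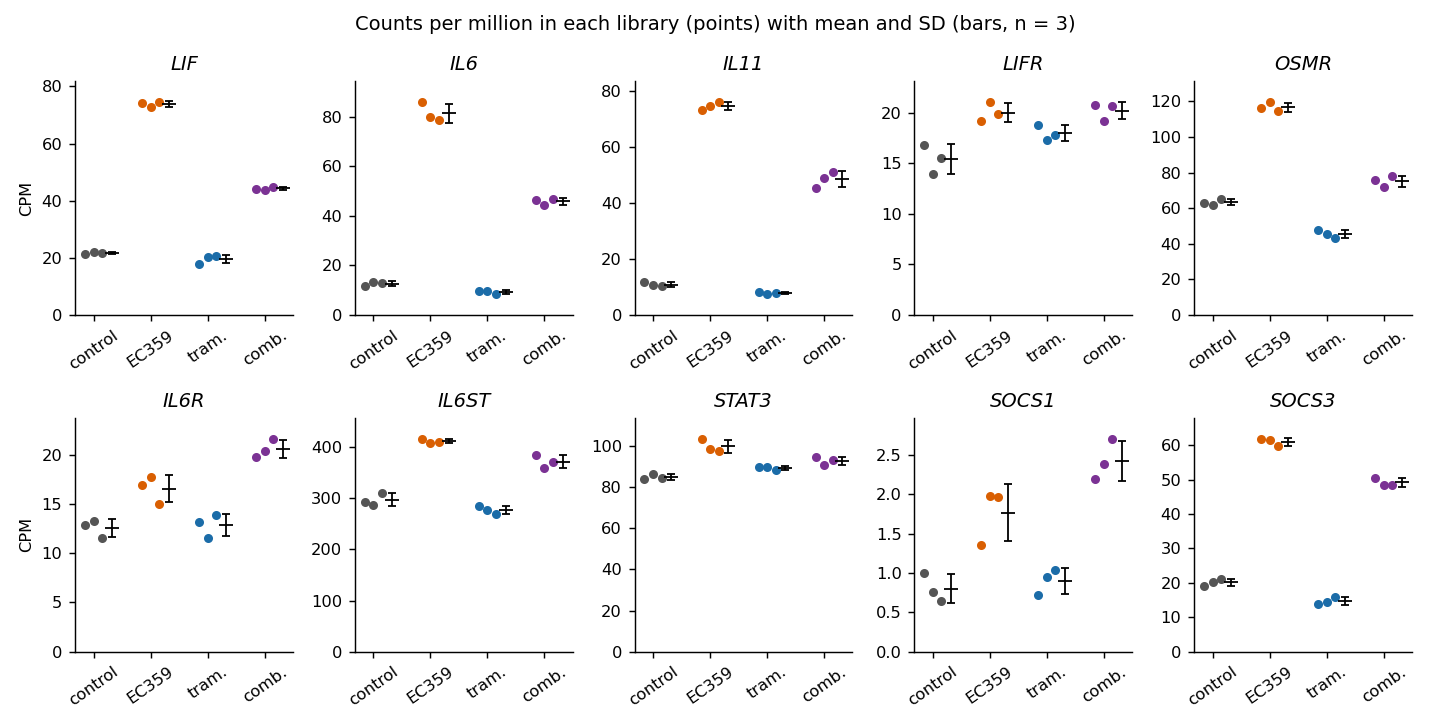
Level in CPM (y axis from 0) of the 10 genes in each of the 12 libraries (points) with the mean and SD of each group (bars, n = 3). LIF, IL6, IL11 and SOCS3 stand highest with EC359 and between control and EC359 in the combination, while IL6R and SOCS1 stand highest in the combination.

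The first question was how each agent, alone or combined, changed these transcripts compared to control. At an adjusted p-value of 0.05, EC359 upregulated all 10 genes and the combination did so too. Trametinib alone downregulated 6 of them (LIF, IL6, IL11, OSMR, IL6ST and SOCS3) and upregulated LIFR. The trametinib calls for LIF, IL6ST and LIFR were lost in some of the alternative fits given below. That for STAT3 in the combination was lost when libraries were scaled by total counts only. With EC359, 10 of 10 passed an adjusted p-value of 0.05 in the upward direction, against 30.8% of all genes tested (30.3% passed downward), and the median log2 fold change was 1.02 against -0.01 over all genes. LIF, IL6, IL11, SOCS1 and SOCS3 also rose at least 2-fold, 5 of 10 against 4.19% of all genes.

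In the combination, all 10 rose, against 35% of all genes upward and 34.7% downward. The median of the 10 was 0.87 against -0.01 over all genes. The 5 genes past 2-fold were again LIF, IL6, IL11, SOCS1 and SOCS3, against 7.27% of all genes upward and 5.87% downward. IL6 and SOCS1 are among the genes that the study displayed from these libraries for this comparison, so their direction is not independent evidence.

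With trametinib alone, 1 of 10 rose and 6 fell, against 13% and 15.2% of all genes, and the median was -0.12 against 0.00. No gene of the 10 changed 2-fold, compared to 0.478% of all genes upward and 0.955% downward. By edgeR's quasi-likelihood test 7 of the 10 passed an adjusted p-value of 0.05 without the fold minimum and 8 had an unadjusted p-value under 0.05, and DESeq2 gave no 2-fold call either. All comparisons with control share the same 3 control libraries. In bulk RNA, a change in the share of cells that express a gene cannot be told apart from a change in the level per cell.

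The groups were also compared library by library. All 3 EC359 libraries and all 3 combination libraries lay above all 3 control libraries for each of the 10 genes, where 32.4% and 36% of all genes did. With trametinib, 2 genes (LIFR and STAT3) lay above control without overlap, 6 lay below, and IL6R and SOCS1 overlapped, against 19.7% above and 20.3% below over all genes.

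**Figure D2:**
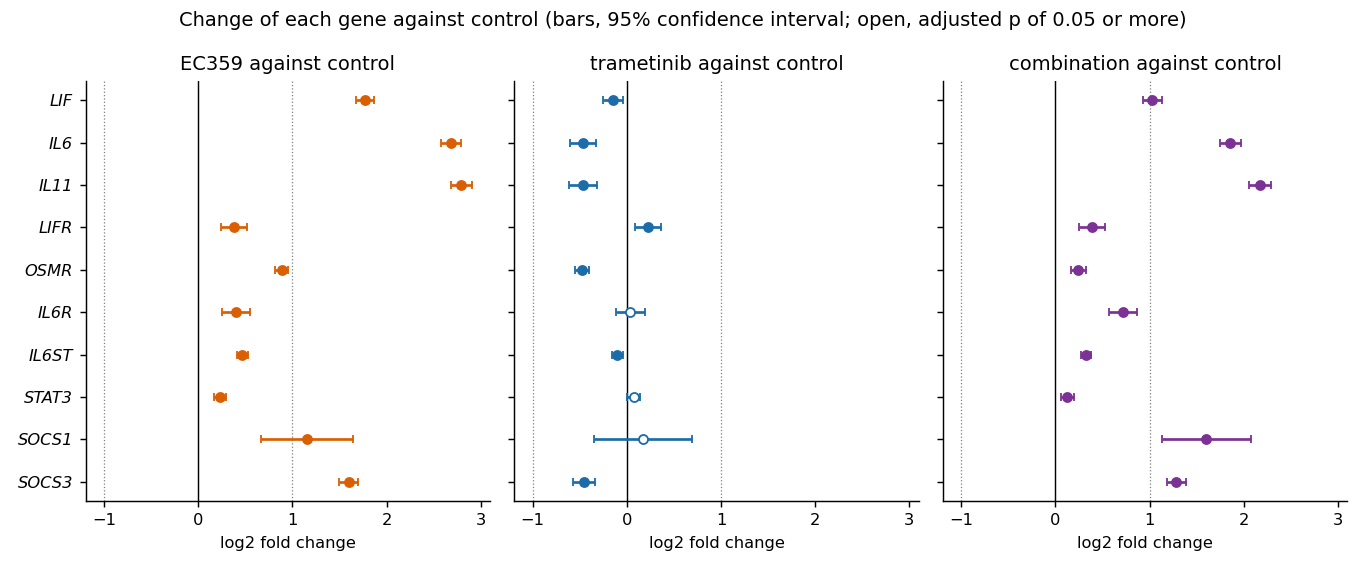
Log2 fold change of each gene compared to control (x axis) for EC359, trametinib and the combination, with 95% confidence intervals. Open points did not pass an adjusted p-value of 0.05, and dotted lines mark a 2-fold change. Every point lies right of 0 with EC359 and in the combination, while with trametinib the filled points run from -0.48 for OSMR to 0.22 for LIFR.

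Among the ligands, IL11 and IL6 showed the largest changes. IL11, a cytokine that signals through IL11RA and gp130, lies on chr19:55364382-55370463 (hg38, minus strand) and stood at 11.7, 10.6 and 10.2 CPM in the control libraries and at 73.4, 74.9 and 76.1 CPM with EC359. With trametinib it stood at 8.11, 7.37 and 7.88 CPM and in the combination at 45.5, 48.9 and 51.3 CPM. The 4 groups did not overlap, in the order trametinib, control, combination and EC359. Compared to control, IL11 rose 6.94-fold with EC359 (log2 fold change 2.79, standard error 0.06, adjusted p = 1.9e-44) and 4.51-fold in the combination (log2 fold change 2.17, standard error 0.06, adjusted p = 2.1e-38). With trametinib alone it fell by 0.47 on the log2 scale (standard error 0.07, adjusted p = 7.8e-07). Its increase with EC359 was the 56th from the top among the 14865 genes tested.

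IL6, the founding cytokine of the family, followed the same order of groups. The gene lies on chr7:22727147-22732002 (plus strand) and measured 11.6, 13.2 and 13.1 CPM in control and 85.8, 79.8 and 78.6 CPM with EC359. It measured 9.58, 9.72 and 8.30 CPM with trametinib and 46.5, 44.3 and 46.9 CPM in the combination. None of the 4 groups overlapped. The increase was 6.42-fold with EC359 (log2 fold change 2.68, standard error 0.05, adjusted p = 4.8e-44) and 3.62-fold in the combination (log2 fold change 1.86, standard error 0.06, adjusted p = 2.5e-35). Trametinib alone lowered IL6 by 1.38-fold (log2 fold change -0.46, standard error 0.07, adjusted p = 3.4e-07).

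LIF, the ligand of the receptor that EC359 targets, lies on chr22:30240447-30246851 (minus strand). Its control libraries held 21.2, 22.2 and 21.7 CPM and its EC359 libraries 74.3, 72.8 and 74.5 CPM. The trametinib libraries held 17.97, 20.2 and 20.6 CPM and the combination libraries 44.2, 43.7 and 45.0 CPM. EC359 and combination libraries were far above the rest, and the trametinib libraries lay just below control without overlap. LIF rose 3.40-fold with EC359 (log2 fold change 1.77, standard error 0.05, adjusted p = 4.0e-38) and 2.04-fold in the combination (log2 fold change 1.03, standard error 0.05, adjusted p = 3.5e-26). When libraries were scaled by total counts only, the latter log2 fold change was 0.89, under the 2-fold threshold. With trametinib alone LIF fell by 0.15 on the log2 scale (standard error 0.05, adjusted p = 0.03), a call that was lost without the first trametinib library (log2 fold change -0.09, adjusted p = 0.30), without control library 2 (-0.13, adjusted p = 0.11) or without control library 3 (-0.15, adjusted p = 0.060). It was also lost in DESeq2 (adjusted p = 0.067), with total counts only (adjusted p = 0.078) and in a fit of only the groups compared (adjusted p = 0.051).

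With EC359 and in the combination, the fold changes of the receptors were smaller than those of the ligands. LIFR, the LIF-binding chain of the LIF receptor, lies on chr5:38474963-38595405 (minus strand) and stood at 16.8, 13.9 and 15.6 CPM in control and 19.2, 21.0 and 19.9 CPM with EC359. It stood at 18.8, 17.4 and 17.8 CPM with trametinib and 20.8, 19.2 and 20.7 CPM in the combination. All 9 treated libraries lay above the 3 control libraries, and the EC359 and combination libraries overlapped. LIFR rose 1.30-fold with EC359 (log2 fold change 0.38, standard error 0.07, adjusted p = 2.4e-06), 1.31-fold in the combination (0.39, standard error 0.07, adjusted p = 9.5e-07) and 1.17-fold with trametinib (0.22, standard error 0.07, adjusted p = 0.0082). The trametinib call was lost without control library 2 (log2 fold change 0.16, adjusted p = 0.12) or without the first trametinib library (0.19, adjusted p = 0.068).

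OSMR, a receptor chain for oncostatin M, lies near LIFR on chr5:38845858-38935641 (plus strand). Its values were 62.7, 61.9 and 65.1 CPM in control, 117, 119.5 and 114 CPM with EC359, 47.6, 45.4 and 43.5 CPM with trametinib and 75.6, 71.7 and 77.8 CPM in the combination. The 4 groups were apart, with trametinib lowest and EC359 highest. OSMR had the largest increase of the 4 receptors with EC359, at 1.85-fold (log2 fold change 0.88, standard error 0.04, adjusted p = 2.9e-29), and with trametinib it fell by 0.48 on the log2 scale (standard error 0.04, adjusted p = 3.5e-15). In the combination the increase was 1.19-fold (log2 fold change 0.25, standard error 0.04, adjusted p = 6.7e-08). OSM, the gene of oncostatin M, had 0 counts in all 12 libraries, which allows up to 3 counts, or 0.0883 to 0.127 CPM.

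IL6R, the IL6-binding receptor chain, lies on chr1:154405193-154469450 (plus strand). It measured 12.8, 13.3 and 11.6 CPM in control, 16.9, 17.7 and 15.01 CPM with EC359, 13.1, 11.6 and 13.8 CPM with trametinib and 19.8, 20.4 and 21.6 CPM in the combination. The combination libraries were above those of the other 3 groups, and trametinib overlapped control. Compared to control, IL6R rose 1.32-fold with EC359 (log2 fold change 0.40, standard error 0.08, adjusted p = 7.5e-06) and 1.64-fold in the combination (log2 fold change 0.71, standard error 0.07, adjusted p = 1.4e-12). With trametinib the log2 fold change was 0.04 (95% interval -0.12 to 0.19, adjusted p = 0.77).

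IL6ST, which encodes the shared chain gp130, lies on chr5:55935097-55994993 (minus strand) and was the most abundant of the 10 in CPM. It stood at 293, 288 and 311 CPM in control, 416, 408 and 411 CPM with EC359, 285, 278 and 269 CPM with trametinib and 384, 359 and 372 CPM in the combination. EC359 was highest and trametinib lowest, without overlap between any of the groups. The changes were small beside those of the ligands: 1.38-fold up with EC359 (log2 fold change 0.47, standard error 0.03, adjusted p = 6.2e-20), 1.25-fold up in the combination (0.32, standard error 0.03, adjusted p = 1.7e-14) and 1.07-fold down with trametinib (-0.10, standard error 0.03, adjusted p = 0.0044). The trametinib call was lost without control library 3 (log2 fold change -0.06, adjusted p = 0.097) or trametinib library 3 (-0.08, adjusted p = 0.057).

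STAT3, the transcription factor downstream of these receptors, was the least changed by EC359 of the 10. The gene lies on chr17:42313325-42388495 (minus strand). Its level was 83.7, 86.5 and 84.6 CPM in control, 103, 98.3 and 97.6 CPM with EC359, 90.0, 89.6 and 88.4 CPM with trametinib and 94.5, 90.7 and 93.4 CPM in the combination. Every treated library lay above every control library, by a small margin. STAT3 rose 1.17-fold with EC359 (log2 fold change 0.23, standard error 0.03, adjusted p = 1.1e-08) and 1.09-fold in the combination (0.13, standard error 0.03, adjusted p = 4.7e-04), and the value with trametinib was 0.07 (95% interval 0.01 to 0.14, adjusted p = 0.089). With libraries scaled by total counts only, the combination value was -0.01 (adjusted p = 0.78), under a scaling in which all genes had a median of -0.14. The same scaling gave 0.10 with trametinib (adjusted p = 0.017). These values are of RNA, and phosphorylation of the protein was not measured here.

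SOCS3, an inhibitor that binds gp130 and JAK kinases, lies on chr17:78356777-78360079 (minus strand). It stood at 19.1, 20.2 and 21.1 CPM in control, 61.8, 61.5 and 59.7 CPM with EC359, 13.8, 14.4 and 15.9 CPM with trametinib and 50.6, 48.5 and 48.4 CPM in the combination. The groups did not overlap, and their order was that of IL6 and IL11. SOCS3 rose 3.03-fold with EC359 (log2 fold change 1.60, standard error 0.05, adjusted p = 1.3e-34) and 2.44-fold in the combination (1.29, standard error 0.05, adjusted p = 6.0e-30), and it fell by 0.45 on the log2 scale with trametinib (standard error 0.06, adjusted p = 5.8e-09).

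SOCS1, an inhibitor of JAK kinases, lies on chr16:11254417-11256182 (minus strand) and had the fewest reads. Its counts were 28, 24 and 22 in the control libraries, 32, 59 and 50 with EC359, 23, 25 and 32 with trametinib and 55, 64 and 72 in the combination. These correspond to 0.999, 0.761 and 0.647 CPM, 1.35, 1.98 and 1.97 CPM, 0.718, 0.949 and 1.04 CPM and 2.19, 2.38 and 2.70 CPM. The combination libraries were highest, trametinib overlapped control, and the standard errors were the widest of the 10 genes. The log2 fold change was 1.15 with EC359 (standard error 0.24, adjusted p = 4.4e-05) and 1.60 in the combination (standard error 0.24, adjusted p = 2.8e-08). With trametinib it was 0.17 (95% interval -0.34 to 0.69, adjusted p = 0.68).

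Levels can be compared between genes only per length, so RPKM (CPM per kilobase of exon) was computed. In control, IL6ST led with 32.7 ± 1.37 RPKM (SD, n = 3) and STAT3 followed with 17.1 ± 0.281 RPKM (SD, n = 3). IL6 at 10.7 RPKM and OSMR at 10.3 RPKM overlapped, and below them came SOCS3 at 7.35, LIF at 5.46, IL11 at 4.55, IL6R at 1.91, LIFR at 1.48 and SOCS1 at 0.660 RPKM. LIFR was the least abundant of the 4 receptor transcripts, and its control libraries did not overlap those of IL6R.

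With EC359 the order changed, and IL6 became the most abundant of the 10 at 68.7 ± 3.22 RPKM (SD, n = 3), above IL6ST at 45.2 ± 0.434 RPKM (SD, n = 3) without overlap. IL11 at 31.5 and SOCS3 at 22.3 RPKM moved above STAT3 at 20.1 RPKM, while OSMR at 19.0 and LIF at 18.6 RPKM overlapped. IL6R, LIFR and SOCS1 remained the lowest, at 2.52, 1.92 and 1.45 RPKM.

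With trametinib the 10 genes had the same order of means as in control, from IL6ST at 30.5 to SOCS1 at 0.741 RPKM. Neighbours that overlapped were IL6 at 7.77 and OSMR at 7.40 RPKM, SOCS3 at 5.37 and LIF at 4.93 RPKM, and IL6R at 1.96 and LIFR at 1.73 RPKM. In the combination, IL6ST at 40.8 RPKM overlapped IL6 at 38.8 RPKM, followed by IL11 at 20.4 RPKM. STAT3 at 18.7 RPKM overlapped SOCS3 at 17.96 RPKM, and SOCS1 at 1.997 RPKM overlapped LIFR at 1.94 RPKM.

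**Figure D3:**
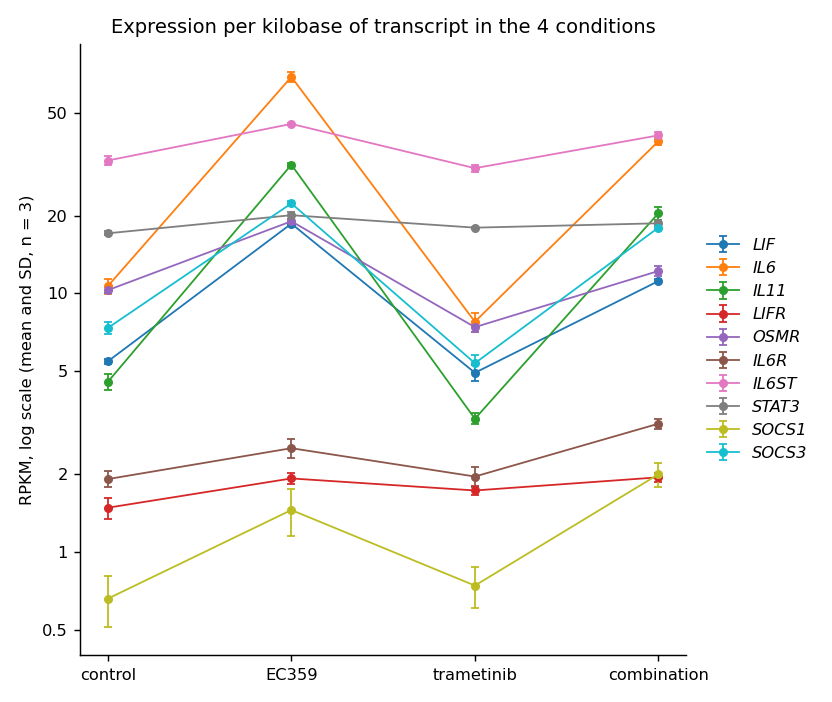
Mean RPKM with SD (n = 3, log scale) of the 10 genes in the 4 groups. IL6 rises past IL6ST with EC359, from 10.7 to 68.7 RPKM, and IL6R, LIFR and SOCS1 stay at the bottom in every group.

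The next comparison asked what trametinib did in cells that also received EC359. Compared to EC359 alone, the combination had lower levels of 7 of the 10 genes and a higher level of 1, against 25.2% of all genes lower and 24.1% higher. The median of the 10 was -0.23 against 0.00 over all genes. No gene of the 10 passed 2-fold, against 1.55% lower and 1.69% higher over all genes, although 8 passed an adjusted p-value of 0.05 and 9 an unadjusted one in edgeR's quasi-likelihood test. DESeq2 gave no 2-fold call either. Library by library, 7 genes lay below EC359 and 2 above it without overlap, where 27% and 26.8% of all genes did.

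The ligands and OSMR fell most. IL6 was lower by 1.77-fold (log2 fold change -0.83, standard error 0.05, adjusted p = 3.4e-22), LIF by 1.67-fold (-0.74, standard error 0.04, adjusted p = 3.3e-21), OSMR by 1.56-fold (-0.64, standard error 0.04, adjusted p = 2.2e-22) and IL11 by 1.54-fold (-0.62, standard error 0.05, adjusted p = 3.3e-17). SOCS3, IL6ST and STAT3 fell less, with log2 fold changes of -0.31, -0.15 and -0.10 (adjusted p = 7.3e-08, 1.1e-05 and 0.0068). The STAT3 call was lost without EC359 library 1 (log2 fold change -0.08, adjusted p = 0.056).

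IL6R was the gene that rose, by 1.24-fold (log2 fold change 0.31, standard error 0.07, adjusted p = 3.1e-04). SOCS1, whose combination libraries all lay above those of EC359, had a log2 fold change of 0.45 (95% interval 0.01 to 0.89, adjusted p = 0.084). For LIFR the difference was 0.01 (95% interval -0.12 to 0.15, adjusted p = 0.90).

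In cells that received trametinib, the addition of EC359 raised 9 of the 10 genes, against 35.3% of all genes. The median was 0.95 against 0.00 over all genes. LIF, IL6, IL11, SOCS1 and SOCS3 passed 2-fold, against 6.12% of all genes. For each of the 10 the combination libraries lay above the trametinib libraries, where 36% of all genes did and 34.3% lay below.

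IL11 rose 6.22-fold in this comparison, IL6 4.99-fold, SOCS3 3.34-fold, SOCS1 2.69-fold and LIF 2.27-fold, with adjusted p-values from 3.7e-41 for IL11 to 3.4e-07 for SOCS1. Among the receptors, OSMR had a log2 fold change of 0.72, IL6R of 0.68, IL6ST of 0.42 and LIFR of 0.17 (adjusted p = 1.7e-23, 9.9e-12, 2.8e-18 and 0.024). The LIFR call was lost with total counts only, where its value was 0.00 (adjusted p = 0.97), in DESeq2 (adjusted p = 0.056) and without trametinib library 2 or 3 or combination library 1 or 3 (adjusted p from 0.065 to 0.094). STAT3 differed by 0.06 (95% interval -0.01 to 0.12, adjusted p = 0.12). With total counts only its value was -0.11 (adjusted p = 0.0029), and the median of all genes moved by -0.16 under that scaling.

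Whether the effect of trametinib depended on EC359 was tested by the interaction, the log2 effect of trametinib with EC359 minus that without it. The interaction was below 0 for LIF, IL6, OSMR and STAT3 and above 0 for IL6R, that is 4 and 1 of the 10 against 15.9% and 14.4% of all genes, at an adjusted p-value of 0.05 with no fold minimum. For LIF, trametinib changed the log2 level by -0.15 without EC359 and by -0.74 with it, an interaction of -0.59 (standard error 0.07, adjusted p = 1.1e-09). For IL6 the 2 effects were -0.46 and -0.83, with an interaction of -0.36 (standard error 0.09, adjusted p = 6.9e-04). Both effects were below 0 for each transcript and the one with EC359 was the larger, while the call for LIF with trametinib alone was lost in the alternatives named above.

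STAT3 had effects of 0.07 and -0.10, with an interaction of -0.18 (standard error 0.05, adjusted p = 0.0022), and OSMR of -0.48 and -0.64, with an interaction of -0.16 (standard error 0.05, adjusted p = 0.014). IL6R went the other way, from 0.04 to 0.31, with an interaction of 0.28 (standard error 0.11, adjusted p = 0.042). The OSMR call was lost without trametinib library 1 or combination library 2 (adjusted p = 0.087 and 0.069). The IL6R call was lost with total counts only (adjusted p = 0.073), in DESeq2 (adjusted p = 0.10), with a replicate block (adjusted p = 0.0503) and without 7 of the 12 libraries in turn, namely control 1 or 2, EC359 3, trametinib 1 or 2 and combination 2 or 3 (adjusted p from 0.056 to 0.16).

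For the other 5 genes the interaction did not pass the threshold. Its value was -0.16 for IL11 (95% interval -0.33 to 0.02), -0.05 for IL6ST (-0.13 to 0.03), 0.14 for SOCS3 (-0.01 to 0.29), -0.21 for LIFR (-0.40 to -0.02) and 0.28 for SOCS1 (-0.41 to 0.96). LIFR passed without control library 1 (-0.28, adjusted p = 0.031) and with total counts only (-0.24, adjusted p = 0.047), and SOCS3 passed without trametinib library 3 (0.20, adjusted p = 0.048).

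**Figure D4:**
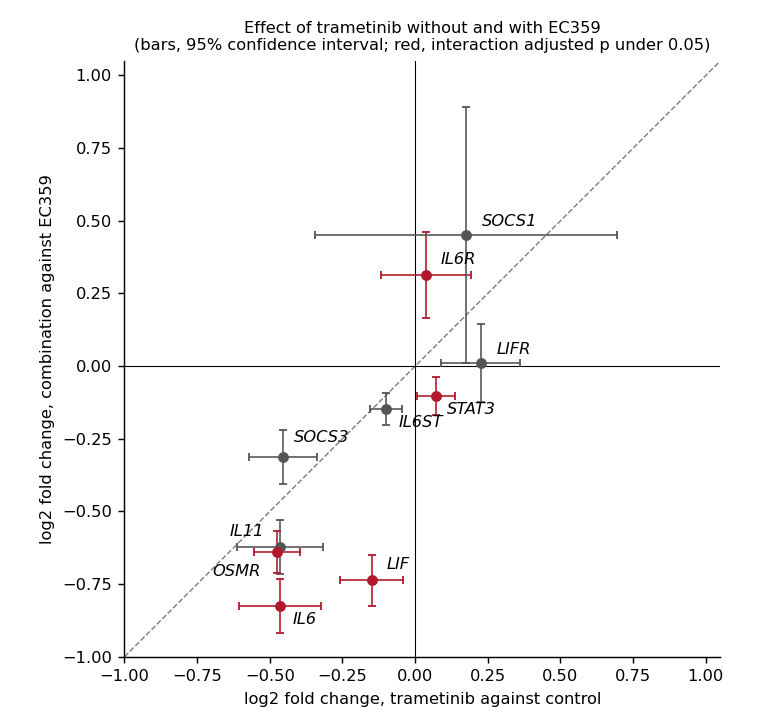
Log2 fold change of each gene with trametinib in the absence (x axis) and presence (y axis) of EC359, with 95% confidence intervals. On the dashed line both effects are equal. LIF, IL6, OSMR and STAT3 (red, interaction past an adjusted p-value of 0.05) lie below it and IL6R above it.

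The rest of the gp130 pathway had smaller median changes than the 10 genes. A list of 42 other ligands, receptors, kinases, STATs, negative regulators and adaptors was examined, of which 36 passed the filter on low counts. With EC359, 19 rose and 3 fell (median log2 fold change 0.16), with trametinib 8 rose and 5 fell (median 0.06), and in the combination 18 rose and 6 fell (median 0.11). These counts stand beside the same shares of all genes as above, 30.8% up and 30.3% down with EC359, 13% and 15.2% with trametinib, and 35% and 34.7% in the combination. With libraries scaled by total counts only, the counts were 14 up and 10 down with EC359, 11 and 3 with trametinib, and 11 and 13 in the combination (medians 0.02, 0.09 and -0.03). That scaling shifted all genes, whose median log2 fold change was then -0.15 with EC359, 0.03 with trametinib and -0.14 in the combination, against -0.01, 0.00 and -0.01 with TMM scaling. The median of the list lay above that of all genes in each of these comparisons under both scalings, and the balance of the counts turned in the combination alone.

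Of the 8 other ligands 4 could be tested, and 2 of them rose with EC359 and in the combination, where 30.8% and 35% of all genes rose. CLCF1, a ligand of the CNTF receptor complex, had 26.0, 26.7 and 25.2 CPM in control, 97.2, 101 and 97.9 CPM with EC359, 24.0, 25.1 and 25.7 CPM with trametinib and 59.3, 67.6 and 65.5 CPM in the combination. The EC359 libraries were highest, and trametinib overlapped control. Its log2 fold change was 1.93 with EC359 (standard error 0.04, adjusted p = 2.3e-41) and 1.31 in the combination (standard error 0.05, adjusted p = 1.8e-32). The other was CNTF, with 0.88 and 0.94 (adjusted p = 1.5e-06 and 2.8e-07), whose exons overlap those of the ZFP91-CNTF readthrough gene, so that its reads are uncertain.

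Among 4 other receptors, 3 of which could be tested, IL27RA rose with EC359 (0.35), and IL31RA rose with trametinib (0.22) and in the combination (0.45). IL11RA, the receptor of IL11, had 7.79 CPM in control and 6.69 CPM with EC359 (log2 fold change -0.22, adjusted p = 0.063). The kinases that relay the signal moved little. The log2 fold changes with EC359, trametinib and the combination were 0.22, 0.13 and 0.20 for JAK1, which passed the threshold in each. For JAK2 they were -0.04, 0.07 and 0.30, of which the last passed. For TYK2 they were 0.06, 0.10 and 0.28, of which the last 2 passed. For JAK3, added to complete the kinases of the list, they were 0.28, 0.25 and 0.11, and none passed.

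Of 15 other negative regulators, 14 could be tested. With EC359 10 rose and 1 fell, with trametinib 1 rose and 4 fell, and in the combination 6 rose and 2 fell. Of all genes 30.8% rose and 30.3% fell with EC359, 13% and 15.2% with trametinib, and 35% and 34.7% in the combination. With total counts only, where all genes in the combination had a median of -0.14, the last count was 3 up and 7 down and the median of these regulators went from 0.01 to -0.13. SH2B3, an adaptor that restrains JAK2 signaling, stood at 74.5, 76.0 and 76.6 CPM in control, 110.2, 103 and 108 CPM with EC359, 25.5, 25.1 and 26.6 CPM with trametinib and 29.8, 27.7 and 28.3 CPM in the combination. Both groups with trametinib were far below control and EC359 far above it. The log2 fold change was -1.56 with trametinib (standard error 0.04, adjusted p = 3.9e-37), -1.40 in the combination (standard error 0.04, adjusted p = 1.0e-35) and 0.50 with EC359 (standard error 0.04, adjusted p = 2.4e-18). SOCS7, a low-abundance SOCS family gene, rose from 1.39 ± 0.137 CPM to 3.28 ± 1.13 CPM (SD, n = 3) in the combination (log2 fold change 1.24, adjusted p = 3.9e-06). Its combination libraries held 2.79, 4.58 and 2.48 CPM, so the size of this rise leans on library 2. Without a fold minimum SOCS7 also passed with EC359 (0.93) and trametinib (0.72).

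A further list held genes that are widely described as induced by STAT3, together with HIF1A, FASLG and ATF3, which served as readouts of LIFR signaling in the study. ATF3 is described there as repressed by that signaling, not induced, so its rise, which the counts of genes that rose include, has the opposite sense to a rise of the others. The list had 30 genes, chosen with earlier results of these data known, of which 26 could be tested. With EC359, 18 rose and 5 fell, and 13 rose at least 2-fold (median log2 fold change 0.89). In the combination 17 rose and 5 fell, with 9 up and 2 down at least 2-fold (median 0.42). With trametinib 6 rose and 9 fell, with 1 up and 3 down at least 2-fold (median 0.00). Of all genes, 30.8% rose and 30.3% fell with EC359, and 4.19% rose at least 2-fold. In the combination 35% rose and 34.7% fell, with 7.27% up and 5.87% down at least 2-fold, and with trametinib 13% rose and 15.2% fell, with 0.478% up and 0.955% down at least 2-fold. With total counts only the counts were 16 up and 6 down with EC359, 15 and 6 in the combination, and 7 and 9 with trametinib. The shares of all genes given here are those with TMM scaling. With total counts only the median of the list was 0.76 with EC359, 0.28 in the combination and 0.02 with trametinib. That of all genes was then -0.15, -0.14 and 0.03.

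Genes of this list are also induced by other pathways, and the part of STAT3 in their changes was not tested. FOS, an AP-1 subunit and immediate early gene, had 39, 83 and 59 counts in control, 1376, 1721 and 1419 with EC359, 11, 3 and 11 with trametinib and 482, 499 and 478 in the combination. Its log2 fold changes were 4.89 (standard error 0.11), -2.77 (standard error 0.27) and 3.26 (standard error 0.12), so FOS was higher than control in both groups with EC359 and lower with trametinib. ATF3, a stress-induced transcription factor, went from 3.29 ± 0.441 CPM in control to 85.3 ± 3.43 CPM with EC359, 8.04 ± 0.679 CPM with trametinib and 183 ± 2.96 CPM in the combination (SD, n = 3 each), and it rose in all 3 comparisons (log2 fold changes 4.70, 1.29 and 5.79).

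JUNB, another AP-1 subunit, PIM1, a kinase that promotes survival, and ZFP36, an RNA-binding protein that destabilizes cytokine mRNAs, were among the genes with the largest increases with EC359. Their log2 fold changes were 2.93, 2.86 and 2.49 with EC359 and 2.13, 2.58 and 2.46 in the combination. CCND1, which encodes cyclin D1, fell in all 3 comparisons, from 807 ± 4.59 CPM in control to 643 ± 2.67 CPM with EC359, 184 ± 4.07 CPM with trametinib and 135 ± 0.652 CPM in the combination (SD, n = 3 each; log2 fold changes -0.33, -2.14 and -2.58).

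To complete the small counts, 2 genes were named after their values were seen. IER3 was the other gene that fell at least 2-fold with trametinib, on 10, 8 and 14 counts in control and 2, 5 and 1 with trametinib. BCL2L1, the gene of the survival factor BCL-xL, was the other that fell at least 2-fold in the combination (-1.56, adjusted p = 1.8e-44). HIF1A, the oxygen-regulated transcription factor, fell in each comparison, with log2 fold changes of -0.28, -0.14 and -0.50 (adjusted p = 2.3e-15, 4.0e-06 and 3.4e-26). FASLG had 0 counts in all 12 libraries, which allows up to 3 counts per library.

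**Figure D5:**
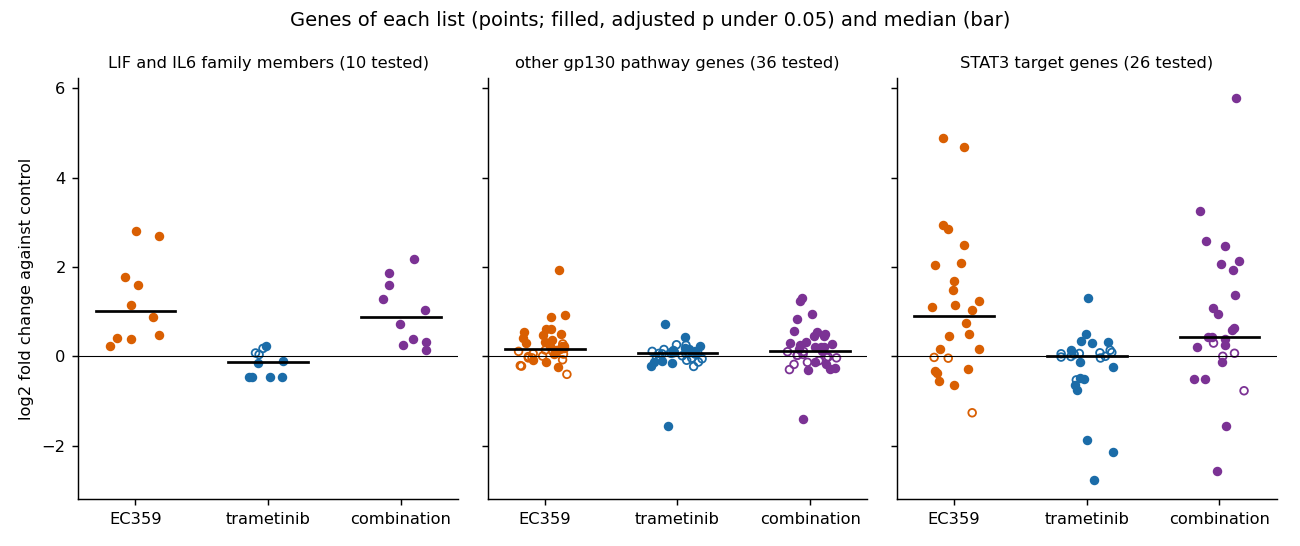
Log2 fold change against control (y axis) of every tested gene in the 3 lists for EC359, trametinib and the combination, with the median as a bar. Filled points passed an adjusted p-value of 0.05. The medians with EC359 are 1.02 for the 10 genes, 0.16 for the other gp130 pathway genes and 0.89 for STAT3 target genes.

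Finally, the profiles of the 10 genes over the 12 libraries were compared with each other and with all genes, as a description, since the libraries share 4 treatments and a profile is set mainly by the group means. Over 12 libraries, the log2 CPM of IL6 correlated with that of IL11 at a Pearson's r of 0.994, with IL6ST at 0.99, and with LIF and SOCS3 at 0.989 each. LIFR and IL6R followed the ligands less closely, at 0.689 and 0.757 with IL6, and the lowest r among the 10 was that of LIFR with OSMR, 0.492.

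Among the 13193 genes of at least 1 CPM on average, those most like LIF were ZC3H12C (r = 0.9964), CEBPB (0.9947) and CLCF1 (0.9939). ZC3H12C went from 21.9 to 70.3 CPM with EC359 and 44.6 CPM in the combination. The genes most like IL6 were HK1, which encodes a hexokinase (0.998), CSF1, the macrophage growth factor (0.998), and MB21D1, the gene of the DNA sensor cGAS (0.9976). CSF1 stood at 9.97 CPM in control, 35.6 CPM with EC359, 7.62 CPM with trametinib and 24.2 CPM in the combination. Those most like LIFR were ZCCHC11 (0.9486), FBXO46 (0.9371) and PLEKHM3 (0.9361), at lower r than the others, and the range of LIFR over the groups was also narrower.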

How the data were processed

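Polyadenylated RNA of 12 OVCAR8 libraries (3 in each of 4 groups) was sequenced from stranded libraries in paired reads. The submitters' processing notes name bcl2fastq, HISAT2 and hg38. Per the file headers, the authors counted reads per gene with featureCounts 1.5.0-p1 and divided reads with several placements or overlapping genes as fractions. The deposited values are therefore estimated counts (expected counts) that the authors did not normalize, and in a library 12.4% to 15.1% of the genes had a value that was not whole. They were not whole in 10 libraries for IL6ST, 7 for STAT3, 6 for OSMR, 3 for IL6, 1 each for LIF, LIFR and SOCS3, and none for the others. Values were rounded.

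The 12 libraries were fitted in a single model of 4 group means with edgeR 4.0.16 in R 4.3.3 (filterByExpr with minimum count 10 and minimum total 15, TMM, robust quasi-likelihood test), with p-values adjusted by Benjamini-Hochberg over all 14865 genes tested. The study's methods state no model for these data. Its thresholds, an adjusted p-value of 0.05 and 2-fold, were used, the interaction having no fold minimum. The biological coefficient of variation was 3.95%. Confidence intervals are 95%, and where no read was counted up to 3 counts were taken as possible, for counting error only. Gene positions come from the deposited hg38 annotation columns.

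The 10 genes and the other lists were chosen with earlier results of these data known. Named genes of the 2 other lists are up to 5 per comparison with control with the largest change past both thresholds and a level of at least 1 CPM, and JAK1, JAK2, TYK2, HIF1A, ATF3 and FASLG whatever their values; a further gene of this rule is not reported here. The tests were repeated with DESeq2 1.42.0, with DESeq2 size factors in edgeR, with scaling by total counts alone, without the filter or with one of 10 counts in each library, in fits of the compared groups alone, with a replicate block, with single libraries left out, and with no fold minimum. The scripts were tested on simulated data.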

Additional observations from a re-analysis of the deposited data

Results flagged for a closer look

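In 5 of the 10 genes the effect of trametinib differed between cells with and without EC359, as tested by the interaction term of edgeR's quasi-likelihood model. Of all genes tested, 15.9% had an interaction below 0 and 14.4% above 0 at the same adjusted p-value of 0.05. The interaction was -0.59 on the log2 scale for LIF (adjusted p = 1.1e-09), -0.36 for IL6 (adjusted p = 6.9e-04), -0.18 for STAT3 (adjusted p = 0.0022), -0.16 for OSMR (adjusted p = 0.014) and 0.28 for IL6R (adjusted p = 0.042). LIF and IL6 kept their calls in every alternative tried, STAT3 did too, and OSMR and IL6R did not. TMM factors moved with EC359, from 1.04 to 1.06 in the groups without it to 0.947 to 0.952 in the groups with it, and their part in these values was not tested beyond the alternative scalings.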

How the results depend on the processing

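The number of the 10 genes past both thresholds was 5 with EC359, 0 with trametinib, 5 in the combination, 0 for the combination against EC359 and 5 for the combination against trametinib, in every alternative that kept the fold minimum except total counts only, which gave 4 in the combination. Without a fold minimum the numbers were 10, 7, 10, 8 and 9. Of all genes, 30.8% then passed upward and 30.3% downward with EC359, 13% and 15.2% with trametinib, and 35% and 34.7% in the combination. For the combination against EC359 24.1% were higher and 25.2% lower, and against trametinib 35.3% were higher. With each library left out in turn, the numbers past both thresholds stayed at 5, 0, 5, 0 and 5. The number of interactions then ranged from 3 (without trametinib library 1 or combination library 2) to 6. Of the other gp130 pathway genes 36 were tested. Without a fold minimum 22, 13 and 24 of them passed with EC359, trametinib and the combination, beside the shares of all genes given above. Their numbers past both thresholds ranged from 1 to 2, 1 to 1 and 2 to 4 with libraries left out. For STAT3 target genes the numbers without a fold minimum were 23, 15 and 22 of 26 tested. Those past both thresholds ranged from 13 to 14, 3 to 4 and 11 to 11 with libraries left out. At least 10 counts in every library left 2 past both thresholds for trametinib, since that filter removed genes.

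Of the log2 fold changes of the 10 genes, 1090 of the alternative values kept direction and side of the threshold, 29 lost the threshold, 4 gained it and 7 changed sign. Sign changes were LIFR in the combination against EC359 (range over left-out libraries -0.0206 to 0.0477, below 0 without EC359 library 1 or combination library 1 or 3), IL6R with trametinib (range -0.0211 to 0.105, below 0 without control library 3 or trametinib library 3), and, with total counts only, STAT3 in the combination against control (-0.0105) and against trametinib (-0.11). Total counts only put the median of all genes at -0.15 with EC359, -0.14 in the combination and -0.16 for the combination against trametinib. The cause of the other changes was not tested. SOCS1, with 22 to 72 counts per library, is limited by depth.

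Deviations from the group means correlated between same-numbered libraries with r of -0.08 to 0.05 over 18 pairs of libraries, and between different numbers with r of -0.10 to 0.11. No pairing by number was seen, though these correlations cannot exclude a weak one. With the replicate number as a block, the number of the 10 genes past the thresholds was 5, 0, 5, 0 and 5 again, and the block changed 1 call of the 10 genes, the IL6R interaction (0.28, adjusted p = 0.0503), which left 4 interactions.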
